A study of Mus musculus with 4 samples.

Results

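The genes described here make and load the molecules that show peptides to T lymphocytes. They were 10 named genes of major histocompatibility complex (MHC) class II presentation and of antigen processing, and their members on the array were the probe sets whose platform annotation names that gene and no other. Of the 10 genes, 9 had such a probe set, with 22 probe sets among them, out of 18193 genes and 34945 single-gene probe sets on the array. The exception was H2-DMb1, whose probe sets name H2-DMb2 as well. The groups were Lgr4 homozygous mutant cultures (2 arrays) and wild-type cultures (2 arrays). Both came from the stromal vascular fraction of epididymal white fat of 4-month-old male mice. This fraction holds the preadipocytes, macrophages, vascular and other cells left when mature fat cells are removed. Both genotypes had the same medium with 10% serum and basic fibroblast growth factor (10 ng/ml). Both then had the same brown-fat induction for 48 h with insulin (5 μg/ml), isobutylmethylxanthine (0.5 mM), dexamethasone (1 μM), T3 (50 nM) and troglitazone (5 μM), followed by 6 days with insulin, T3 and troglitazone. The inducers dexamethasone and troglitazone, a glucocorticoid and a PPAR gamma agonist, were thus present in the controls too. Which allele of Lgr4 was used, the strain, and whether an array stands for 1 animal or a pool are not given in the labels.

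In class II presentation, the alpha and beta chains pair in the endoplasmic reticulum with the invariant chain (Cd74), travel to endosomes, lose the invariant chain to proteases and exchange its last fragment for a peptide with the help of the H2-DM pair. The transactivator Ciita switches on the genes of the class II chains, the invariant chain and the H2-DM pair. It does so constitutively in professional antigen-presenting cells and, after interferon gamma, in many other cells. In class I presentation, the immunoproteasome (with Psmb8 as a catalytic subunit) cuts cytosolic proteins, the Tap1 and Tap2 transporter carries the peptides into the endoplasmic reticulum, and beta-2 microglobulin (B2m) completes the class I molecule. In fat, macrophages and dendritic cells carry class II, and adipocytes themselves have been described to express it.

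Promoter windows show the letters through which class II and class I genes are known to be controlled. Each window is RefSeq sequence of GRCm38.p6 on the gene's strand, from 250 bases before to 50 after the gene's start. The table held windows for 7 of the 10 members. Windows are shown for H2-DMb1 and H2-DMb2 because their shared probe sets carry a difference described below, for H2-Eb1 and H2-Aa as class II chains, and for B2m as the class I partner. They lie at chr17:34152941-34153240 (+ strand), chr17:34144999-34145298 (+), chr17:34305617-34305916 (+), chr17:34287774-34288073 (-) and chr2:122147437-122147736 (+). Capitals mark the motif matches.
H2-DMb1: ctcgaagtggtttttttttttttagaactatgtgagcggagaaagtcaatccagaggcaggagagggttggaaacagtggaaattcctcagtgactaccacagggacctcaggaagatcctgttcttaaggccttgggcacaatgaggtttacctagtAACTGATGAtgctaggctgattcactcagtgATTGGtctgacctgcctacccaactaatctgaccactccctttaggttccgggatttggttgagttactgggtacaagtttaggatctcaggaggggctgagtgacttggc
H2-DMb2: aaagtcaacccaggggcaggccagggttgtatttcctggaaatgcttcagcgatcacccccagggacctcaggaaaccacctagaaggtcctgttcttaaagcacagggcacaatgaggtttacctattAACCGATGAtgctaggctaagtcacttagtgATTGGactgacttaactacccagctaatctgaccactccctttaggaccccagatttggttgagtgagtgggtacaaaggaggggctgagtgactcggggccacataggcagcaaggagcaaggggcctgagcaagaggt
H2-Eb1: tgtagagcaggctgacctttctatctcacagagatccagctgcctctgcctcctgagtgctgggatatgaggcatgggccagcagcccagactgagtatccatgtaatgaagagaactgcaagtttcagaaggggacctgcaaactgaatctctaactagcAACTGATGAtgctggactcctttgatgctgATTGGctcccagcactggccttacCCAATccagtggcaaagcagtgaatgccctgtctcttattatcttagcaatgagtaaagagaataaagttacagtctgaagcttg
H2-Aa: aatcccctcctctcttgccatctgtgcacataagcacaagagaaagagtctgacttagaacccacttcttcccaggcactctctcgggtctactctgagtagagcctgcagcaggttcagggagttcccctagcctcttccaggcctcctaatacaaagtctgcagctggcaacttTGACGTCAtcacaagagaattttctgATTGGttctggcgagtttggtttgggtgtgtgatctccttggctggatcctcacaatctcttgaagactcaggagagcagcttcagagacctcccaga
B2m: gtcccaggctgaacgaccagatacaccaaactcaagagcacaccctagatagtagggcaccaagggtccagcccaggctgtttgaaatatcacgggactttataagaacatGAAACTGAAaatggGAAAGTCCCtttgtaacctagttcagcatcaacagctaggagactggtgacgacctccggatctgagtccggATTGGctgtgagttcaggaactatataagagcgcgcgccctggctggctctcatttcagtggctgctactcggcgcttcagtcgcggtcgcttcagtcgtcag

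The 5 motifs named below were searched on both strands, and no match overlapped another in these windows. The X box, which binds the RFX complex, was searched as AACNGATGA, a pattern set after reading these windows. It was found in 0.648% of all 32851 windows, among them H2-DMb1, H2-DMb2 and H2-Eb1. The Y box, which binds NF-Y, was searched as ATTGG and is common, being in 37.4% of windows. Its first base lay 31 bases after the first base of the X box in H2-DMb1 and in H2-DMb2, and 30 bases after it in H2-Eb1. In H2-Aa the window held a cAMP response element (TGACGTCA, 1.79% of windows), with the Y box 26 bases further on. B2m had an interferon-stimulated response element (GAAANTGAA, 2.21%), an NF-kappa-B site (GGGANTTTC, 1.11%) and a Y box. Among members whose windows are not shown, Psmb8 had no match to any of the 5 motifs. Tap1 had a Y box as its only match, and H2-DMa had a lone Y box in its second window and no match in its first. The windows of H2-DMb1 and H2-DMb2 were identical at 215 of 345 aligned positions (62.3%), beside 186 of 345 (53.9%) for H2-DMb1 and H2-Eb1. Those of Tap1 and Psmb9 overlap by 275 bases on opposite strands.

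**Figure D1:**
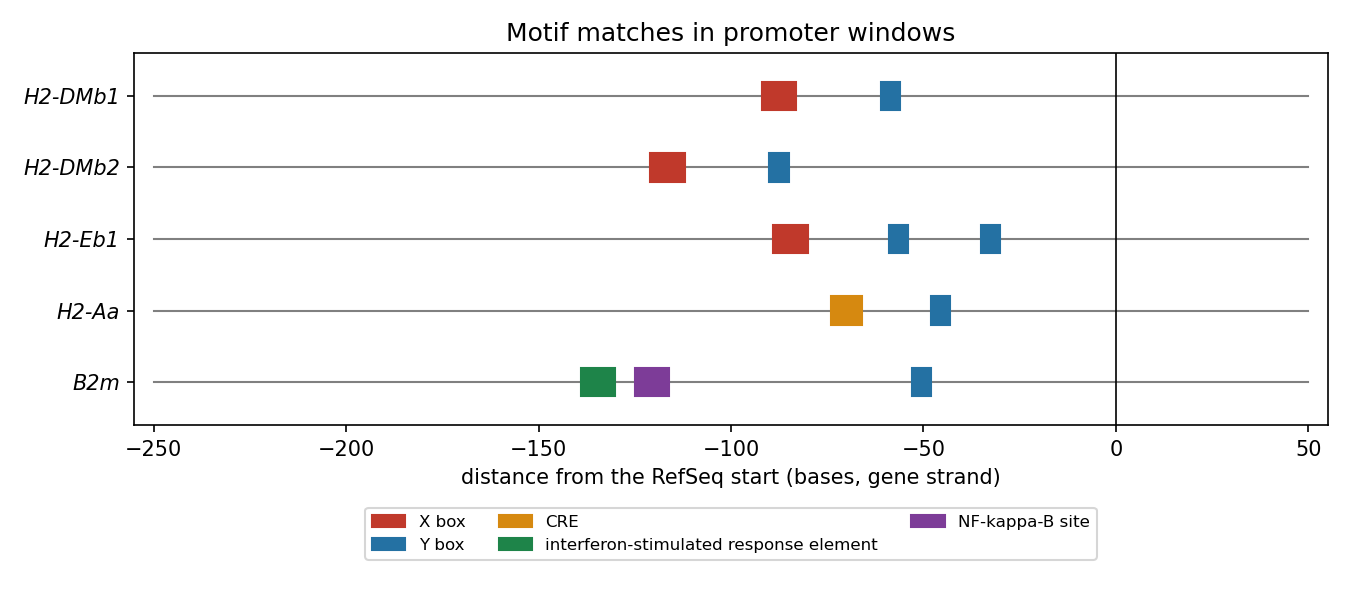
Positions of motif matches in 5 promoter windows, in bases from the RefSeq start on the gene's strand, with a coloured box for each match. The X box and Y box lie 30 or 31 bases apart in H2-DMb1, H2-DMb2 and H2-Eb1. The H2-Aa window has no match to the X box pattern and has a cAMP response element (CRE) 26 bases before its Y box.

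The targeted gene was low on the arrays labelled mutant. Lgr4 read 6.18 and 6.09 on the mutant arrays and 8.65 and 8.21 on the wild-type arrays. That is a difference of -2.29 with SE 0.14 and adjusted p = 1.45e-05, or -1.10 with its probe sets averaged, and the mutant signal lay at the signal filter. The values are log2 signals after RMA, on which a difference of 1 is a doubling. Differences are mutant minus wild-type, adjusted p-values are from limma over all genes tested, and genes whose mean signal was 6.13 or less, the 40th percentile over probe sets, were not tested. Medians of the 4 arrays lay between 6.66 and 6.69. Adipocyte markers were present in both genotypes and higher in the mutant (8 of 8 tested, Adipoq 14.48 and 14.45 against 11.26 and 11.24). In that comparison 11.1% of all genes tested were called higher. No label ties an array to its own animal or culture, although all are called biological replicates. The p-values therefore rest on how far these 4 samples scatter, and part of that scatter may be technical. In such bulk RNA, fewer cells of a type and less RNA per cell cannot be told apart.

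No member passed the test of genotype. Of the 9 with a probe set, 7 passed the signal filter and limma called 0 of them (adjusted p threshold 0.05), in a comparison that called 29.8% of all 13173 genes tested, 11.1% higher and 18.7% lower. At an unadjusted p under 0.05 there were 3 of 7, all lower in the mutant, where 26.4% of all genes were lower and 41.8% differed either way. These were H2-Ab1, H2-DMa and Psmb8, and they were also the 3 whose mutant and wild-type values did not overlap, in a comparison where 68.8% of all genes tested did not overlap, 39.9% with the mutant lower. The median difference of the 7 was -0.13, beside -0.04 over all genes tested, and 4 of the 7 differences were below 0. Without wild-type replicate 1 all 3 were called lower, in a fit that called 35.6% of all genes. With either mutant array left out (14.1% and 16% of all genes called) or wild-type replicate 2 left out (48.2%) none was.

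**Figure D2:**
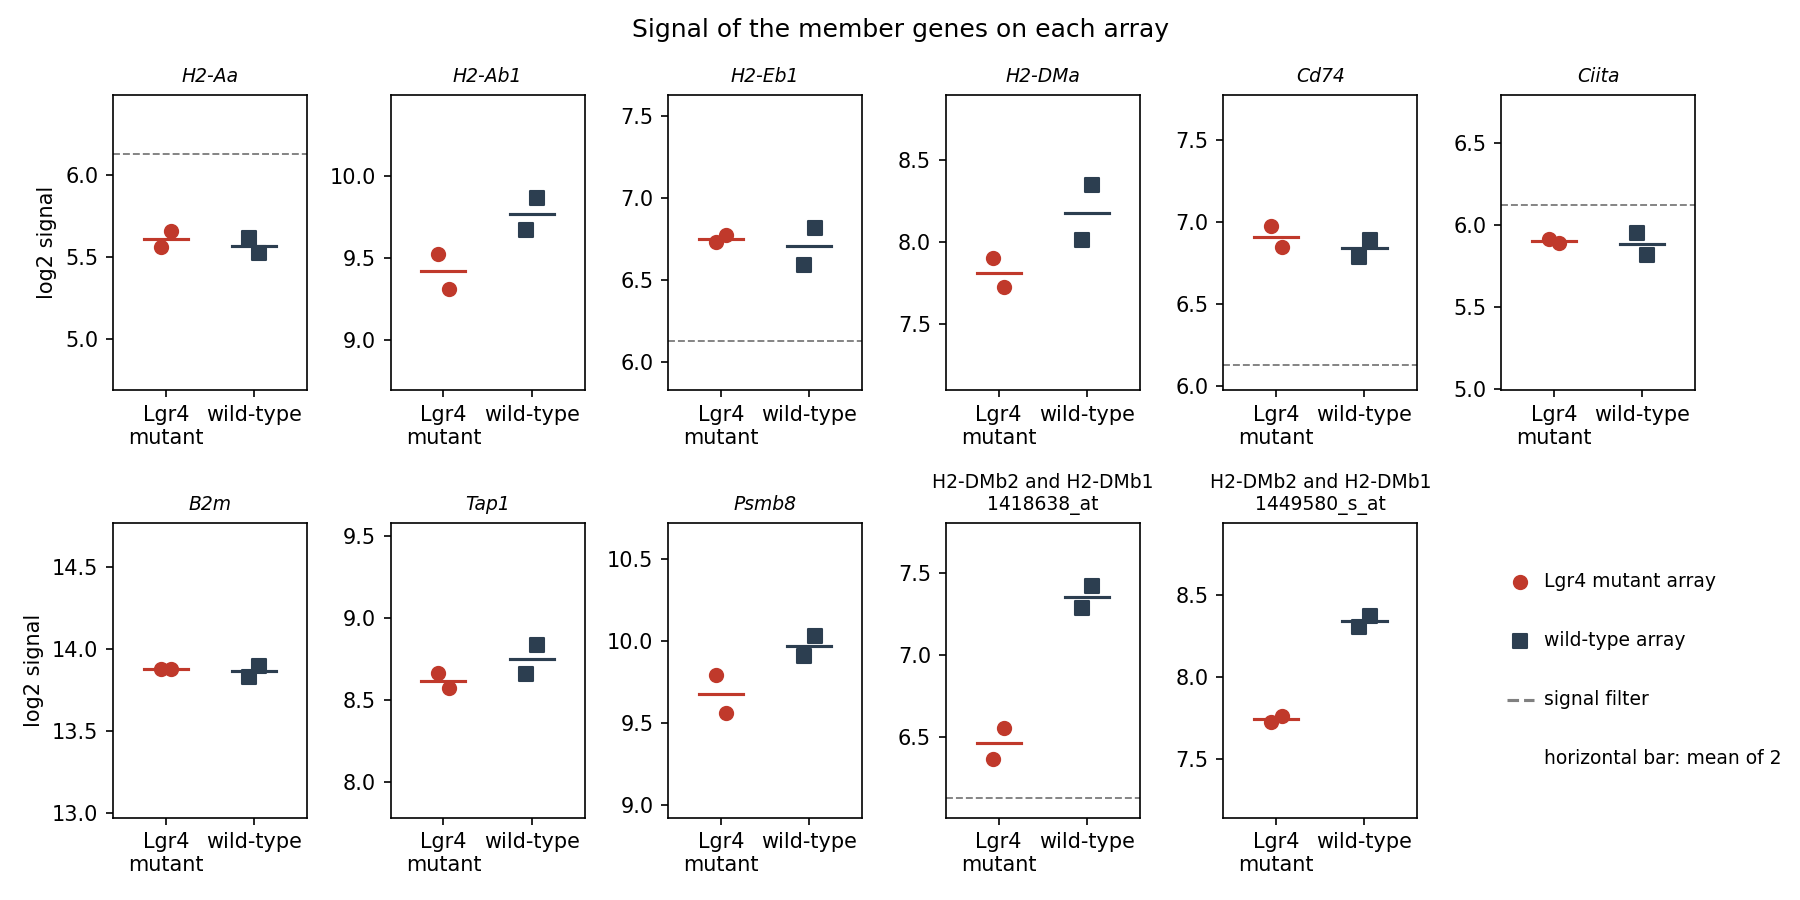
Log2 signal of each member on each array, mutant on the left and wild-type on the right, with bars at the mean of 2 arrays and a dashed line at the signal filter of 6.13 where it falls in the panel. Every panel spans the same range of log2 signal. The 2 probe sets naming H2-DMb2 and H2-DMb1 sit lower on both mutant arrays, H2-Ab1, H2-DMa and Psmb8 are slightly lower there, and the others overlap.

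The class II chains are given one by one, since levels of different probe sets cannot be compared. H2-Ab1, the beta chain of the I-A molecule, read 9.52 and 9.31 in mutant cultures and 9.67 and 9.87 in wild-type cultures. Both mutant arrays lay below both wild-type arrays. The means were 9.42 ± 0.15 in mutant and 9.77 ± 0.14 in wild-type cultures (SD, n = 2 each). The difference was -0.35 (SE 0.12, 95% confidence interval -0.62 to -0.09, adjusted p = 0.0502). That p-value lay just above the threshold, so H2-Ab1 was not called. Its other 2 probe sets, both above the filter, differed by -0.32 and -0.28, so all 3 pointed the same way. H2-Ab1 was called lower under 5 of 13 alternatives. Over all its alternatives the adjusted p ran from 0.00927 to 0.409, and the difference stayed below 0 in 13 of 13.

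H2-Aa, which encodes the alpha partner of the same molecule, lay below the filter. It read 5.56 and 5.66 in mutant and 5.62 and 5.52 in wild-type cultures by its brightest probe set, and the genotypes overlapped. The difference was 0.04 (SE 0.10, interval -0.19 to 0.26) in the fit without the filter (adjusted p = 0.825), in which 20.7% of genes were called (8.03% higher). A dimmer probe set of H2-Aa differed by -0.43 (adjusted p = 0.0718 with every probe set tested), and the remaining 2 by 0.08 and -0.02. With all 4 of its probe sets below the filter, H2-Aa was near background on these arrays.

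H2-Eb1, the beta chain of the I-E molecule, had 1 probe set, which read 6.73 and 6.77 in mutant and 6.59 and 6.81 in wild-type cultures. The mutant values lay between the wild-type ones. The difference was 0.05 (SE 0.11, interval -0.20 to 0.29, adjusted p = 0.764).

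The invariant chain and the transactivator showed no difference past the test. Cd74, which blocks the peptide groove until the molecule reaches endosomes, read 6.97 and 6.84 in mutant and 6.78 and 6.89 in wild-type cultures. The ranges overlapped, and the difference was 0.07 (SE 0.10, interval -0.16 to 0.30, adjusted p = 0.622). Ciita, the master regulator of the class II genes, lay below the filter on every array. Its brightest probe set read 5.91 and 5.89 in mutant and 5.95 and 5.82 in wild-type cultures, with a difference of 0.02 (SE 0.10, interval -0.21 to 0.24, adjusted p = 0.923). Its other 2 probe sets, lower still, differed by 0.07 and 0.10.

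The peptide-exchange pair had a single-gene probe set for its alpha chain alone. H2-DMa, the alpha chain of the exchange factor, read 7.90 and 7.73 in mutant and 8.01 and 8.35 in wild-type cultures. Both mutant arrays were lower, and wild-type replicate 1 lay nearer to them than wild-type replicate 2 did. The means were 7.81 ± 0.12 in mutant and 8.18 ± 0.24 in wild-type cultures, a difference of -0.37 (SE 0.13, interval -0.66 to -0.07, adjusted p = 0.0659). It was called lower under 3 of 13 alternatives, with the adjusted p running from 0.00434 (without wild-type replicate 1) to 0.355 and the difference from -0.53 to -0.14 (probe sets averaged). Its second, dimmer probe set differed by 0.08.

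The beta chain of the exchange factor could not be read apart from its duplicate. H2-DMb1 and H2-DMb2 are neighbouring copies, and 2 probe sets name both, so they count for neither gene. The first read 6.37 and 6.55 in mutant and 7.29 and 7.42 in wild-type cultures. The second read 7.72 and 7.76 in mutant and 8.30 and 8.37 in wild-type cultures. On both probe sets the genotypes were apart by more than the spread within either.

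In a fit over all probe sets above the filter that name 1 or several genes, which called 24.1% of 23653 probe sets (15.4% lower), both were lower in the mutant. The differences were -0.89 (SE 0.11, interval -1.15 to -0.63, adjusted p = 0.00201) and -0.60 (SE 0.09, interval -0.81 to -0.38, adjusted p = 0.0052), or 1.86-fold and 1.51-fold lower. The first kept its call under all 9 alternatives run on it, and the second lost it without mutant replicate 1 and without mutant replicate 2. A probe set naming only H2-DMb2 went the other way, reading 6.48 and 6.36 in mutant and 6.05 and 6.06 in wild-type cultures (0.36, SE 0.10, adjusted p = 0.0224). Its wild-type values lay below the filter, so it was tested through the mutant group and the size is against a signal near background. The call was lost without either mutant array and when the probe sets of H2-DMb2 were averaged. How the probes of these 3 probe sets divide between the copies was not tested.

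**Figure D3:**
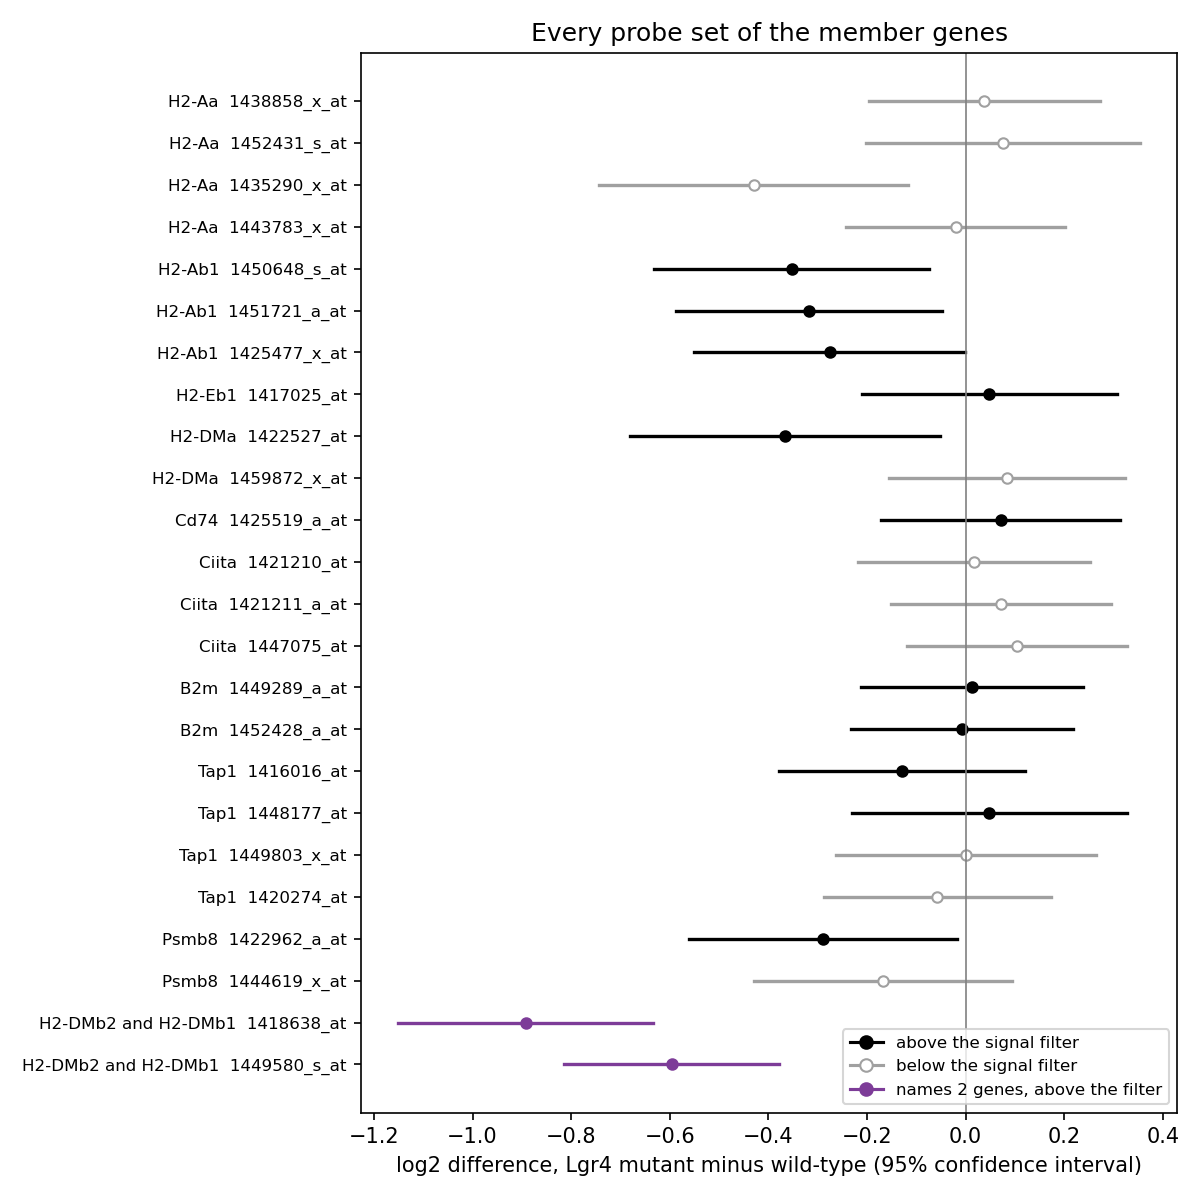
Log2 difference, mutant minus wild-type, of each of the 22 probe sets of the members, in the fit with every single-gene probe set tested, and of the 2 probe sets naming H2-DMb2 and H2-DMb1, in the fit over probe sets above the filter. Lines are 95% confidence intervals from limma, open circles lie below the signal filter, and the 2 probe sets naming both genes reach -0.89 and -0.60 while the 3 of H2-Ab1 lie between -0.35 and -0.28.

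None of the 3 class I members passed the test. B2m was among the brightest signals, at 13.88 and 13.88 in mutant and 13.83 and 13.90 in wild-type cultures. The mutant values lay inside the wild-type range, and the difference was 0.01 (SE 0.09, interval -0.20 to 0.22, adjusted p = 0.927). Its other probe set differed by -0.01.

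Tap1, a subunit of the peptide transporter, read 8.66 and 8.57 in mutant and 8.66 and 8.83 in wild-type cultures. One mutant value fell between the wild-type ones. The difference was -0.13 (SE 0.10, interval -0.36 to 0.11, adjusted p = 0.373), and its other probe set above the filter differed by 0.05. Psmb8, the immunoproteasome subunit that replaces the constitutive Psmb5, read 9.80 and 9.56 in mutant and 9.91 and 10.03 in wild-type cultures. The groups did not overlap, with means of 9.68 ± 0.17 in mutant and 9.97 ± 0.09 in wild-type cultures. The difference was -0.29 (SE 0.11, interval -0.55 to -0.03, adjusted p = 0.0849), and it passed under 2 of 13 alternatives (adjusted p from 0.0375 to 0.593), over which the difference ran from -0.41 to -0.17.

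The fixed partners of these class I members did not pass either. Psmb9, whose promoter window overlaps that of Tap1, read 8.98 and 8.66 in mutant and 8.97 and 9.04 in wild-type cultures (-0.18, adjusted p = 0.28). Psmb10, the remaining inducible catalytic subunit, averaged 9.94 ± 0.05 in mutant and 9.94 ± 0.07 in wild-type cultures (adjusted p = 0.956). Tap2 (0.03) and the loading bridge tapasin, Tapbp (0.33), did not pass, with adjusted p = 0.901 and 0.0911. Without wild-type replicate 2 both did. Among 4 tested genes of the immunoproteasome and its activator, 1 rose, Psme1 (the PA28 alpha subunit, 0.53, SE 0.10, adjusted p = 0.00597), and its call ended without mutant replicate 1. The others did not pass, in a comparison where 11.1% of all genes tested were higher.

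Among 14 constitutive proteasome subunits, 4 rose and 10 did not pass, with none lower (median difference 0.09). In the same comparison 11.1% of all genes tested were higher. The 4 were Psmb5 (0.40), Psmb7 (1.07), Psma1 (0.97) and Psma6 (0.34). Only 2 subunits were called without mutant replicate 1 and likewise without mutant replicate 2. Over all genes too, fewer were called higher without either mutant array. Wild-type arrays of Psmb7 read 9.68 and 10.84, and its difference ran from 0.49 to 1.64 depending on which was left out.

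Class I heavy chains included 2 genes that rose by more than 3-fold. Cd1d1, a class I-like molecule that presents lipids rather than peptides, read 12.06 and 11.86 in mutant and 9.49 and 9.23 in wild-type cultures. Every mutant value lay more than 2 above every wild-type value, a 6.07-fold difference (log2 2.60, SE 0.12, adjusted p = 3.01e-06). H2-Q10, a secreted class I chain known from liver, read 8.88 and 8.69 in mutant and 6.87 and 7.13 in wild-type cultures, a 3.45-fold difference (log2 1.79, SE 0.12, adjusted p = 2.21e-05). The classical chains H2-K1 and H2-D1, whose probe sets end in _x_at and may match relatives, averaged 13.22 ± 0.02 and 13.36 ± 0.08 in mutant cultures, against 13.07 ± 0.18 and 13.24 ± 0.13 in wild-type cultures. Their differences of 0.14 and 0.11 did not pass (adjusted p = 0.365 and 0.454). In all, 8 of 10 heavy chains with a probe set of their own were tested, of which 2 rose and the other 6 did not pass. Of all genes tested 11.1% were higher.

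Of 8 genes of peptide loading and its regulator, 2 fell and 6 did not pass, with none higher (median difference -0.26). In the same comparison 18.7% of all genes tested were lower. Pdia3, the disulfide isomerase of the loading complex, fell by 0.79 (SE 0.10, adjusted p = 7.84e-04), or by 0.47 with its probe sets averaged. Nlrc5, the transactivator of class I genes and a relative of Ciita, fell to 7.18 and 7.08 in mutant cultures, against 7.64 and 7.69 in wild-type cultures (-0.53, SE 0.09, adjusted p = 0.00425). The Nlrc5 call ended without mutant replicate 2. Fewer genes of the list were then called lower, and more were called lower without wild-type replicate 2, as over all genes.

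The factors that sit on the X and Y boxes were tested in full. Of 7, 1 rose and 6 did not pass (median difference -0.16), in a comparison where 11.1% of all genes tested were higher. Rfx5 read 8.46 and 8.52 in mutant and 8.59 and 8.64 in wild-type cultures (-0.13, adjusted p = 0.331). Its partners Rfxap (-0.16, adjusted p = 0.263) and Rfxank (-0.03, adjusted p = 0.876) did not pass either. The riser was Nfyc, a subunit of NF-Y (0.36, SE 0.09, adjusted p = 0.0197), a call lost without either mutant array. The NF-Y subunits Nfya (-0.23, adjusted p = 0.328) and Nfyb (-0.27, adjusted p = 0.113) differed the other way and did not pass. Nor did Creb1 (-0.37, adjusted p = 0.0544). Among 5 further class II genes on the array, H2-Eb2 (0.06) and H2-Ea (0.11) were tested beside H2-DMb2 and did not pass.

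Endosomal processing genes, among them proteases that cut antigen and the invariant chain, were lower on balance. In this list of 9, 5 fell and 4 did not pass, with none higher and a median difference of -0.32. Of all genes tested 18.7% were lower. Ctss, the cathepsin that removes the invariant chain in antigen-presenting cells, read 12.48 and 12.50 in mutant and 12.92 and 13.04 in wild-type cultures (-0.49, SE 0.10, adjusted p = 0.00675). Legumain (Lgmn) fell by 0.55, Ctsz by 0.47 and the thiol reductase Ifi30 by 0.39. Ctsl, the fifth, fell by 0.32. Without mutant replicate 1, and also without mutant replicate 2, only 1 of the 9 was called. Ctsb (-0.05), Ctsd (-0.07) and Ctsh (0.08), general lysosomal proteases, did not pass, nor did Cst3 (-0.07).

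Macrophage markers were counted in the same comparison, in which 18.7% of all genes tested were lower. Among 21 markers, 9 fell and 12 did not pass, with none higher (median difference -0.32), and 15 fell without wild-type replicate 1, 4 without mutant replicate 1 and 3 without mutant replicate 2. Without wild-type replicate 2, 8 fell and 2 rose. Over all genes too, fewer were called lower without either mutant array and more without either wild-type array. The summed linear signal of the macrophage markers was 141370 and 141941 in mutant and 159510 and 175717 in wild-type cultures, a ratio of 0.845. Of the defining markers, Ptprc (-0.58, adjusted p = 0.00382) and Csf1r (-0.33, adjusted p = 0.028) fell, and Adgre1 (-0.19, adjusted p = 0.156) and Cd68 (-0.27, adjusted p = 0.146) did not pass. The Csf1r call held under 9 of 13 alternatives and was lost without either mutant array, with its probe sets averaged and with every probe set tested. Itgam (-0.79) and Fcgr1 (-0.68) fell. Laptm5 (-0.39) was called lower with all arrays, but not without either mutant array or with its probe sets averaged (highest adjusted p = 0.737), and its difference was 0.756 without probe sets ending in _s_at or _x_at. None of the defining markers was near background, with Cd68 at 12.87 in mutant and 13.14 in wild-type means. The part of macrophage content in the differences of H2-Ab1, H2-DMa, Psmb8 and the H2-DMb probe sets was not tested.

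Dendritic cells and B lymphocytes, which also carry class II, were read from their own markers. Among dendritic cell markers 7 were tested, and 1 fell, Clec10a (-0.78, adjusted p = 0.00228), a lectin that macrophages also carry. The defining markers Itgax, Flt3 and Zbtb46 averaged 6.62, 6.62 and 6.67 in mutant and 6.58, 6.56 and 6.38 in wild-type cultures, and none passed. The list summed to 1018 and 957 in mutant and 1145 and 1192 in wild-type cultures, and without Clec10a, an alternative chosen after seeing the data, to 690 and 687 in mutant and 663 and 647 in wild-type cultures, so the direction rested on Clec10a. Of the B lymphocyte markers 2 of 6 on the array lay above the filter, with Cd79a below it, and of the T lymphocyte and NK cell markers 4 of 8, with Cd3e at 6.98 in mutant and 6.68 in wild-type means. None of these 6 passed. The sums were 410 to 453 in mutant and 382 to 417 in wild-type cultures for B lymphocytes, and 756 to 774 in mutant and 641 to 723 in wild-type cultures for T lymphocytes and NK cells. Beside them, 7 of 11 fibroblast and progenitor markers fell, among them Thy1 (-2.17) and Col1a1 (-0.70), with 4 called without mutant replicate 1. Over all genes tested 18.7% were lower and 11.1% higher. Of 7 endothelial markers 1 rose, Cdh5 (0.42), and 1 fell, Vwf (-0.40). The mutant mean of Vwf (6.00) lay below the filter. It was thus tested through the wild-type group, and the size is against a signal near background. The Cdh5 call held under 7 of 13 alternatives and not without mutant replicate 1 or wild-type replicate 1, and that of Vwf under 9 of 12 and not without either mutant array.

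Interferon gamma signalling is known to raise class II through Ciita and class I through Nlrc5 and Irf1. Among 20 interferon-stimulated genes, 11 fell and 9 did not pass, with none higher and a median difference of -0.44. Of all genes tested 18.7% were lower. Ifit1, an antiviral RNA-binding protein, read 6.67 and 6.69 in mutant and 8.40 and 8.23 in wild-type cultures (-1.64, SE 0.10, adjusted p = 1.28e-05). Ifit2 (-1.04), the deconjugase Usp18 (-0.84) and Ifit3 (-0.80) fell as well. The count was 7 without mutant replicate 2 and between 10 and 15 without each of the other arrays. These are mainly targets of type I interferon. Of those tied to interferon gamma, Igtp (-0.46), Irgm1 (-0.67) and Gbp3 (-0.50) fell and Gbp2 (0.28) and Gbp7 (-0.15) did not pass. Cxcl9 lay below the filter at 4.16 and 4.25 in mutant and 4.14 and 3.96 in wild-type cultures, as did Cxcl10 (-0.02). These 7 were named after their values were seen.

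The interferon gamma pathway upstream showed 3 lower genes of 9 tested, none higher and 6 not past the test. Of all genes tested 18.7% were lower. Socs3, a feedback inhibitor of cytokine signalling, fell by 1.15 (SE 0.09, adjusted p = 6.34e-05, and by 0.76 without probe sets ending in _s_at or _x_at) and the kinase Jak2 by 0.54 (SE 0.10, adjusted p = 0.00617). The kinase Jak1 fell by 0.32 (adjusted p = 0.0484), and that call held under 6 of 13 alternatives and not without mutant replicate 1, mutant replicate 2 or wild-type replicate 1. Jak2 was lost without mutant replicate 1, which left 1 gene of the list. Irf1, which acts directly on class I and Ciita promoters, averaged 10.10 ± 0.07 in mutant and 10.01 ± 0.02 in wild-type cultures (0.08, adjusted p = 0.533). The receptor chains Ifngr1 (-0.01) and Ifngr2 (-0.15) did not pass.

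Costimulatory molecules, the signal that T lymphocytes need beside the MHC molecule, were tested for 6 genes, of which 2 fell and 4 did not pass. Of all genes tested 18.7% were lower. Cd80 read 5.66 and 5.65 in mutant and 7.60 and 7.16 in wild-type cultures, a difference of -1.72 (SE 0.14, adjusted p = 6.98e-05). Its mutant values lay below the filter, so it was tested through the wild-type group and the size is against a signal near background. With its probe sets averaged the difference was -0.57. Icam1, an adhesion partner of T lymphocytes, fell by 0.35 (adjusted p = 0.0263), a call lost without either mutant array. Icosl (0.49, adjusted p = 0.0538), Cd274 (0.16), Cd86 (0.05) and Cd40 (-0.24) did not pass.

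**Figure D4:**
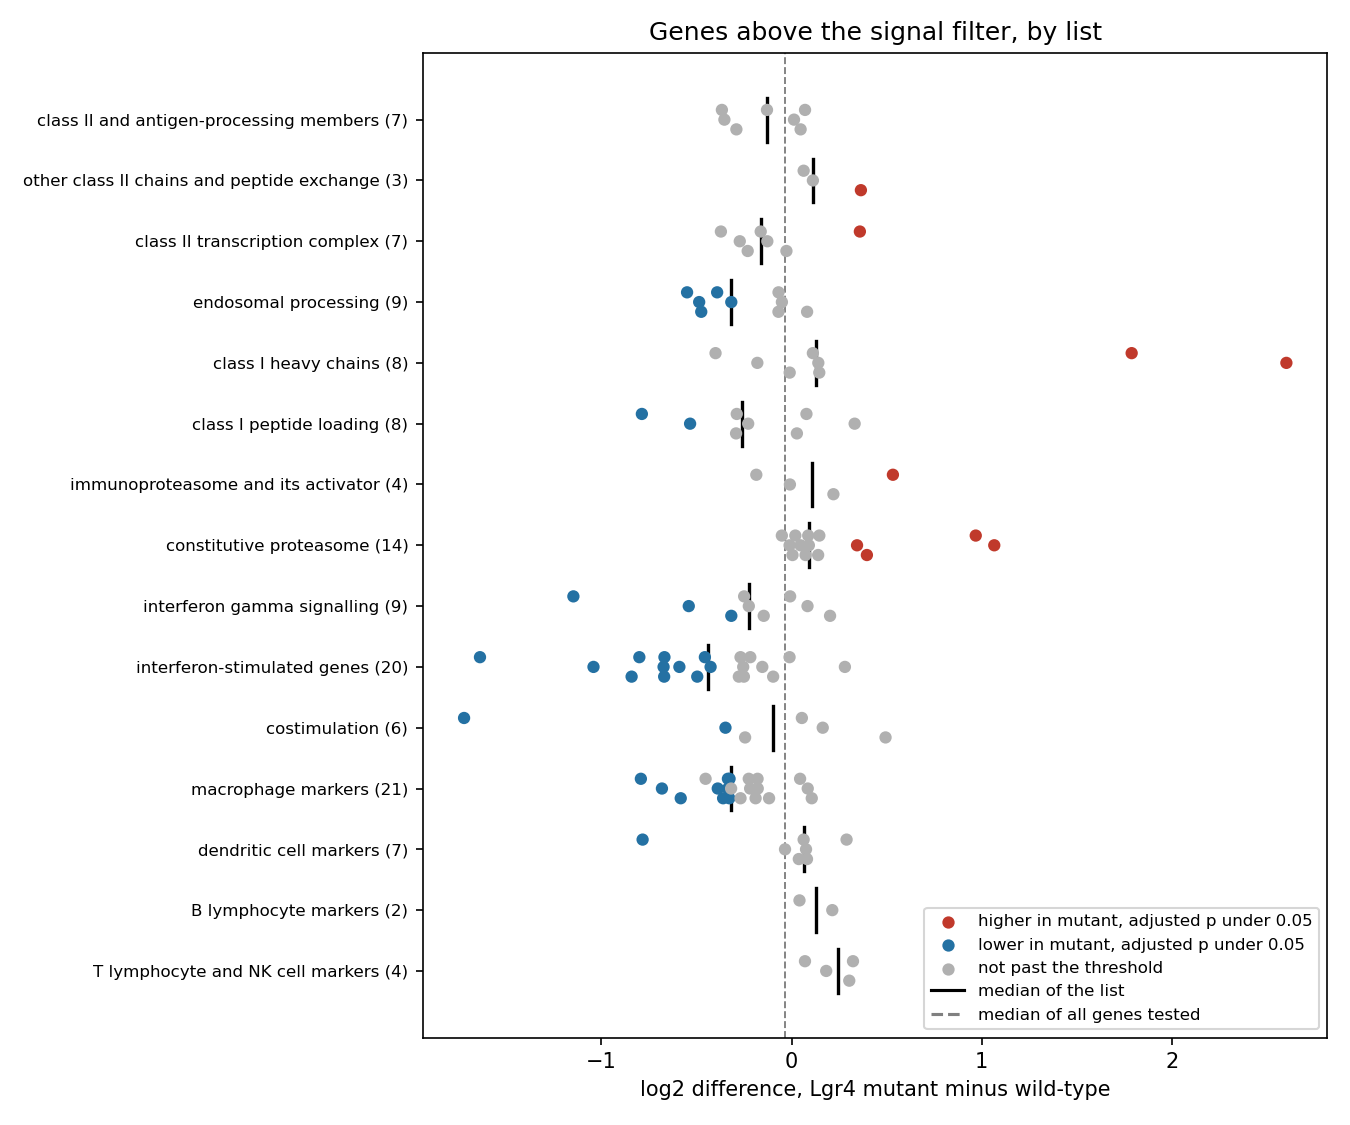
Log2 difference, mutant minus wild-type, of each gene above the signal filter, by list, with the number tested in brackets, a black bar at the list's median and a dashed line at the median of all genes tested (-0.04). None of the 7 members is coloured as called, while 5 of 9 endosomal processing genes, 9 of 21 macrophage markers and 11 of 20 interferon-stimulated genes are lower and Cd1d1 and H2-Q10 are far to the right. Of all genes tested 11.1% were called higher and 18.7% lower.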

How the data were processed

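Expression was measured on 4 Affymetrix 3' arrays, 2 per genotype. For each probe set the authors deposited a log2 signal, made with Partek 6.6 and RMA per the submitters' processing notes. RMA corrects background, equalises the distributions of arrays and summarises probes and so removes differences in total RNA. That the scale is log2 was judged from its range.

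Gene names came from the platform's annotation table, updated through RefSeq (GRCm38.p6), where 204 probe sets found no match. The 64 control probe sets were left out. For each gene the brightest single-gene probe set was tested in limma 3.58.1 (R 4.3.3, lmFit and eBayes, 6.21 prior degrees of freedom), with Benjamini-Hochberg adjustment, and genes below the filter were read from the fit without it. The fit was tested on simulated data. Members and lists were chosen with earlier results of these data known. The named genes were all members, fixed partners and markers, and up to 4 called genes of each list with the largest difference. Plin1 was among the fixed names and was not analysed here, and some other fixed names are not reported here. The probe sets naming several genes were added after the data were seen. No depth applies to arrays, so the number of arrays limits the precision.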

Additional observations from a re-analysis of the deposited data

How the results depend on the processing

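Members called lower numbered 0 with no signal filter, with probe sets averaged, with every probe set tested, without probe sets ending in _s_at or _x_at and with a repeated quantile normalization. They numbered 1 with the filter at the 60th percentile (H2-Ab1), 1 with a variance trend (H2-Ab1), 2 with arrays centred on the median (H2-Ab1 and H2-DMa) and 3 with the replicate number as a block (H2-Ab1, H2-DMa and Psmb8). Leaving out each array in turn gave 0 to 3 members lower, and over all genes 809 to 2627 higher and 1042 to 3722 lower, beside 1456 and 2468 with all arrays. No member was called higher under any alternative run. A fit without 1 array leaves a lone array that is assumed to vary like the other genotype. The same-numbered arrays share only a number, since the labels name no shared animal, litter or day, and the correlation of their deviations was 0.159. The block gave 1802 genes higher and 3077 lower. Laptm5 changed sign without probe sets ending in _s_at or _x_at (0.756, adjusted p = 0.143), and the cause was not tested. Signal near background limits what can be said of H2-Aa, Ciita, H2-Eb1 and Cd74.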

Other observations

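Of 16 probe sets above the filter that name several genes of the lists, 1 was higher in the mutant, 7 were lower and 8 were not called. That fit called 24.1% of 23653 probe sets, 15.4% lower. The 7 include both probe sets naming H2-DMb2 and H2-DMb1 and both naming H2-T23, so they are not 7 separate genes. Those naming H2-K1 and H2-D1 (0.17), H2-Q9 and H2-Q7 (-0.04), H2-Q6 and H2-Q8 (0.03) and H2-Q5 and H2-K1 (0.03) were among the 8, and the 2 naming H2-T9, H2-T22 and H2-T10 differed by 0.32 (adjusted p = 0.148) and -0.31 (adjusted p = 0.0481). The 2 naming H2-T23, a nonclassical class I chain recognised by inhibitory NK cell receptors, together with H2-T-ps read 8.51 and 8.44 in mutant and 9.27 and 9.27 in wild-type cultures, and 11.08 and 10.98 in mutant and 11.58 and 11.58 in wild-type cultures. Their differences were -0.80 (adjusted p = 0.00154) and -0.55 (adjusted p = 0.00729), and the call on the brighter probe set ended without mutant replicate 1 and without mutant replicate 2. A probe set naming Psme2 and Psme2b, for the PA28 beta subunit and a close copy, read 12.04 and 11.97 in mutant and 11.13 and 11.22 in wild-type cultures, a 1.77-fold rise (adjusted p = 0.00154) that held under all 9 alternatives run on it. A probe set naming Isg15 and Gm9706 read 7.79 and 7.55 in mutant and 8.33 and 8.77 in wild-type cultures (-0.88, adjusted p = 0.0102), a call that ended without mutant replicate 2. These probe sets were chosen after their values were seen.

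Below the signal filter, H2-Ob, the beta chain of the factor that restrains H2-DM, read 4.67 and 4.68 in mutant and 5.13 and 5.18 in wild-type cultures (-0.48, adjusted p = 0.00812 in the fit without the filter). A brighter probe set that names H2-Ob and Gm20506 differed by -0.05 (adjusted p = 0.721) and was called under none of 9 alternatives. H2-T24, another nonclassical class I gene, read 4.86 and 4.65 in mutant and 5.75 and 5.44 in wild-type cultures (-0.84, adjusted p = 0.00238 in that fit).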
